A study of Mus musculus with 6 samples.

Results

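Laminin chain genes were followed in RNA of bone marrow mesenchymal progenitor cells from mice that lack 1 of these chains. The members are the 9 genes Lama1, Lama2, Lama3, Lama4, Lama5, Lamb1, Lamb2, Lamb3 and Lamc1, taken by gene name from the 25491 genes of the deposited table. 8 of the 9 had enough counts to be tested among 14465 genes, and Lama3 did not. Mesenchymal progenitors are the stromal cells of the marrow that give rise to bone, cartilage and fat and that support blood formation. They were sorted as CD45-, TER119-, CD31-, CD44-, CD51+ and SCA1-. The series holds 3 libraries from Lama4-/- mice and 3 from wild type mice. All mice were C57BL/6J, aged 14 weeks, and all had received a sublethal dose of 7 Gy of radiation 6 weeks earlier, so there is no unirradiated group. The labels do not say how the Lama4 allele was made, or that each library came from its own mouse, so a p-value here reflects only how far these samples spread, and that spread may be technical.

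Laminins are the cross-shaped glycoproteins that build the sheet of every basement membrane. Each molecule is a trimer of an alpha, a beta and a gamma chain that wind around each other along a coiled coil. The alpha chain carries the globular end that binds integrins and dystroglycan on cells. In marrow, laminins that contain the products of Lama4 or Lama5 lie around sinusoids and arterioles and on stromal cells, where blood progenitors adhere to them. The product of Lama4 is known as a truncated alpha chain without the short arm that the larger alpha chains have.

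The Lama4-/- libraries held between 12979711 and 15663957 counts and the wild type libraries between 6263830 and 13409177. The cells carried the stromal transcripts Lepr, Pdgfra, Pdgfrb and Cxcl12 in every library. Lepr was between 68.8 and 167 CPM in Lama4-/- and between 203 and 443 CPM in wild type. Pdgfrb was between 79.1 and 130 CPM in Lama4-/- and between 192 and 367 CPM in wild type. Cxcl12 overlapped, at between 3701 and 6095 CPM in Lama4-/- and between 3866 and 10051 CPM in wild type. The 10 stromal markers summed to between 59022 and 148448 CPM in Lama4-/- and between 99075 and 121293 CPM in wild type. Most of this sum came from the collagen genes Col1a1 and Col1a2, so it says little about the other markers. Col1a1 alone was between 19637 and 69810 CPM in Lama4-/- and between 31851 and 45028 CPM in wild type. At an unadjusted p under 0.05 with edgeR, 4 of 10 stromal, 3 of 8 pericyte and 3 of 5 cartilage markers were lower in Lama4-/- and 0 were higher. At the same level 4 of 10 neutrophil and monocyte markers and 4 of 8 red cell markers were higher and 0 were lower. Over all tested genes 8.34% were lower and 4.45% higher. The cartilage collagen gene Col2a1 was between 48161 and 93763 CPM in Lama4-/- and between 67100 and 106128 CPM in wild type. Of the gate, Ptprc (CD45) and Pecam1 (CD31) were at or below 2.18 CPM in Lama4-/- and 4.09 CPM in wild type, while Cd44 was between 53.2 and 81.98 CPM in Lama4-/- and between 70.6 and 152 CPM in wild type. Ly6a (SCA1) was also present in every library, between 8.64 and 11.8 CPM in Lama4-/- and between 8.90 and 16.3 CPM in wild type. CPM are counts set against the scaled total of their library. The summed level of the 11 endothelial markers that the table lists was between 1.74 and 7.62 CPM in Lama4-/- and between 8.90 and 11.9 CPM in wild type. Only 4 of them had enough counts to be tested, and 0 were lower or higher at an unadjusted p under 0.05 with edgeR. Groups that did not overlap, lower in Lama4-/-, were found for 12% of all tested genes. The defining endothelial marker Cdh5 was at 0 in each Lama4-/- library and between 0.342 and 2.24 CPM in wild type. Its lowest wild type value, in replicate 2, lay below the 0.514 CPM that 3 counts make there. Other markers of that list went the other way in single libraries: Esam had 3.84, 1.50 and 0 CPM in Lama4-/- and 0.449, 1.37 and 0 CPM in wild type, and Sox18 had 3.60 CPM in Lama4-/- replicate 1 and at most 0.171 CPM in any other library. The 10 neutrophil and monocyte markers summed to between 118 and 665 CPM in Lama4-/- and between 38.02 and 106 CPM in wild type. The 8 red cell markers summed to between 1379 and 3874 CPM in Lama4-/- and between 258 and 1690 CPM in wild type. The part of these other cells in the values below was not tested. In bulk RNA, fewer cells of a type and less RNA per cell cannot be told apart.

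Fold changes in the series depended on transcript length, and laminin chains have long transcripts. The longest annotated transcripts of the 9 members ran from 4867 bases for Lamb3 to 11388 bases for Lama5. 7 of the 8 tested members fell in the 2 longest of 10 length classes of all tested genes. The median log2 fold change, Lama4-/- over wild type, was -0.92 over all tested genes of the longest class, with 86.7% of them negative, and 0.34 over the shortest class. Lama4-/- replicate 3 also had more empty genes than the other libraries. Of the 14465 tested genes, 1217 had no count there, against 928 in Lama4-/- replicate 1 and 266 in Lama4-/- replicate 2, and between 160 and 449 in the wild type libraries. These facts are given beside the members' values, and a fit with the length trend removed is set beside the plain fit.

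Lama4 was the main alpha chain of these cells and was not detected in the mutants. Every one of the 3 Lama4-/- libraries had 0 counts of it, against 45.4, 40.4 and 33.8 CPM in the wild type libraries. The 1281 wild type counts lay in all 3 libraries, and the groups did not overlap. A count of 0 allows up to 3 counts over the whole group, so its level in Lama4-/- was at least 581-fold lower, with an adjusted p of 0.0497 in edgeR's quasi-likelihood test, and the library labels held for this gene. This was the only call at an adjusted p of 0.05 among all tested genes in that test, a background of 0.00691% for lower genes. The call held without Lama4-/- replicate 3 (adjusted p = 0.0482) and was lost without each of the other libraries, with an adjusted p between 0.0735 without Lama4-/- replicate 1 and 0.593 without wild type replicate 3. It was also lost in edgeR with upper-quartile scaling (0.0550), without robust moderation (0.0507), with the replicate block (0.3005) and with the length trend removed (0.0752), and in limma voom (0.160), while DESeq2 gave 1.47e-16. The Lama4-/- libraries hold the same 0 counts in all of these fits. Lama4 lies on chromosome 10 from 38965515 to 39110188 on the plus strand (GRCm38), and its longest transcript has 38 exons and 6046 bases. The counts cover the whole gene and do not show which exons the mutation removes.

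None of the other alpha chains was called higher in Lama4-/-. Lama5, the most widely expressed alpha chain of adult basement membranes, had 0, 6.92 and 0 CPM in Lama4-/- replicates 1, 2 and 3, against 10.3, 6.34 and 6.71 CPM in wild type. It was counted in every wild type library and in a single mutant library, whose level lay inside the wild type range. A count of 0 allows up to 0.180 CPM in Lama4-/- replicate 1 and 0.218 CPM in replicate 3. The fitted log2 fold change was -1.76 (SE 1.85, adjusted p = 0.755 with edgeR), with a 95% interval from -6.08 to 2.56. It rests on Lama4-/- replicate 2: without that library both mutant libraries are at 0, and the fitted value, which is then no bound, was -9.61 (adjusted p = 0.196). It was -5.84 with the replicate block and -5.01 in limma voom. Lama5 lies on chromosome 2, 180176373 to 180225859, minus strand, and its longest transcript has 79 exons.

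Lama1, an alpha chain of early embryonic and some adult epithelial basement membranes, had 1.32, 8.12 and 0 CPM in Lama4-/-, against 8.75, 5.14 and 8.41 CPM in wild type. Lama4-/- replicate 2 lay within the wild type range and the other mutant libraries lay below it. The log2 fold change was -1.24 (SE 1.44, adjusted p = 0.784). Lama2, the alpha chain of muscle and Schwann cell basement membranes, had 11.6, 4.06 and 0 CPM in Lama4-/-, against 9.35, 15.8 and 3.86 CPM in wild type. Its groups overlapped, and the log2 fold change was -0.87 (SE 1.41, adjusted p = 0.853). Lama3, the alpha chain of epithelial anchoring laminin, was nearly silent: it had 0, 0 and 46 counts in Lama4-/- and 1, 0 and 3 counts in wild type. All but 4 of its 50 counts thus came from Lama4-/- replicate 3, the library in which Lama1, Lama2 and Lama5 had none. Lama1 lies on chromosome 17, 67697259 to 67822647, plus strand, and Lama3 on chromosome 18, 12333819 to 12583013, plus strand. Lama2 lies on the same chromosome as Lama4, 27619758 being its end nearest to Lama4, 11.3 Mb away.

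Set against transcript length, Lama4 stood well above the other alpha chains in wild type. In CPM per kilobase of the longest transcript, wild type cells held Lama4 at 6.59 ± 0.963, Lama2 at 1.004 ± 0.619, Lama1 at 0.780 ± 0.209, Lama5 at 0.684 ± 0.193 and Lama3 at 0.00968 ± 0.0112 (SD, n = 3). The levels of Lama2, Lama1 and Lama5 did not differ beyond their spread. Over the union of annotated exons in place of the longest transcript, the levels were 3.30 for Lama4 and 0.591 for Lama2, and Lama4 then made up 61.7% of the alpha chain level. Lama4 made up 72.8, 71.0 and 74.7% of the summed alpha chain level in the wild type libraries, a narrow range. The summed alpha chain level was 1.35, 1.88 and 0.317 CPM per kilobase in Lama4-/-, against 10.3, 9.42 and 7.48 in wild type. Without Lama4, the remaining alpha chains still summed to 2.80, 2.73 and 1.90 CPM per kilobase in wild type, so the highest mutant sum (1.88, replicate 2) lay just below the lowest wild type sum (1.90). Lama1, Lama2 and Lama5 are in the longest length class, whose median was -0.92 over all tested genes, and 12% of all tested genes were lower with groups that did not overlap. What remained in the mutants differed between libraries: Lama2 held 89.7% of it in replicate 1, Lama1 held 45.3% in replicate 2, and Lama3 held 100% in replicate 3.

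**Figure D1:**
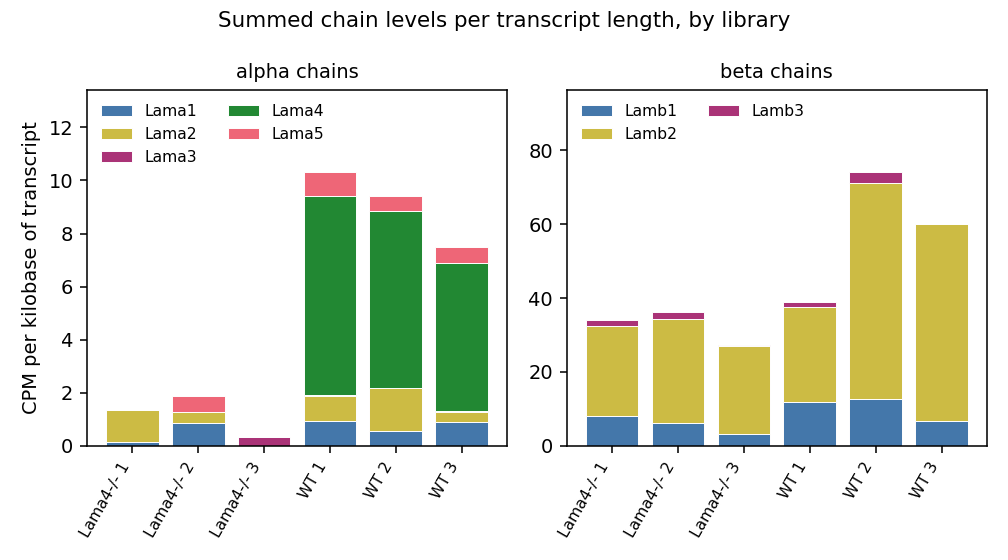
Stacked bars of the CPM per kilobase of each alpha and beta chain in every Lama4-/- and wild type (WT) library, with a linear axis from 0 in each panel. Lama4 is missing from the Lama4-/- alpha bars and fills most of each wild type one (72.8, 71.0 and 74.7%), and Lamb2 fills most of every beta bar.

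Beta chain transcripts were more abundant per length than alpha chain transcripts, and most came from Lamb2. Lamb2, the beta chain of synaptic and glomerular basement membranes that is also made by stroma and vessels, had 138, 158 and 134 CPM in Lama4-/-, against 145, 329 and 300.3 CPM in wild type. The 3 mutant libraries were close to each other and to wild type replicate 1, so the groups overlapped. The log2 fold change was -0.85 (SE 0.31, 95% interval -1.57 to -0.13), and it did not pass the adjustment over all genes (adjusted p = 0.329, unadjusted p = 0.0271 with edgeR). Lamb2 was the only chain besides Lama4 with an unadjusted p under 0.05 in this edgeR fit, where 8.34% of all tested genes were lower in Lama4-/- at that level. Other tests picked other chains. DESeq2 gave unadjusted p-values of 0.0120 for Lamb2 and 0.0272 for Lamc1. limma voom gave 0.0263 for Lama5, 0.0494 for Lamc1 and 0.0943 for Lamb2.

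Lamb1, the beta chain of the most widespread laminins, had 46.8, 36.3 and 18.6 CPM in Lama4-/-, against 68.9, 72.9 and 38.3 CPM in wild type. The lowest wild type library lay below the highest mutant library. The log2 fold change was -0.82 (SE 0.40, adjusted p = 0.449), with an interval from -1.77 to 0.12. Lamb3, the beta chain of epithelial anchoring laminin, had 7.26, 9.18 and 1.23 CPM in Lama4-/-, against 7.18, 14.9 and 0.926 CPM in wild type. The third replicate was low in both genotypes, and the groups overlapped throughout (log2 fold change -0.37, SE 1.06, adjusted p = 0.924). Its direction was not stable: it was 0.11 without Lama4-/- replicate 3, 0.54 without wild type replicate 2 and 0.05 with the length trend removed.

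Per kilobase, Lamb2 was at 25.5 ± 2.28 in Lama4-/- and 45.8 ± 17.6 in wild type, Lamb1 at 5.86 ± 2.46 in Lama4-/- and 10.4 ± 3.27 in wild type, and Lamb3 at 1.21 ± 0.852 in Lama4-/- and 1.58 ± 1.44 in wild type (SD, n = 3 each). Over the union of exons, wild type Lamb1 was at 6.06. Lamb2 made up 78.9 ± 7.82% of the beta chain level in Lama4-/- and 77.8 ± 11.5% in wild type (SD, n = 3 each). The level of Lamb2 over that of Lamb1, per kilobase, was 3.03, 4.47 and 7.42 in Lama4-/-, and 2.16, 4.63 and 8.05 in wild type. The spread within each genotype was wide and the ranges overlapped. The summed beta chain level was between 27.3 and 36.2 CPM per kilobase in Lama4-/-, and between 39.1 and 74.1 in wild type.

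The start regions of 3 chains are shown because their levels differ most among the chains with a sequence at hand, from the abundant Lamb2 through Lamb1 to the low Lama5. RefSeq promoter windows (GRCm38.p6) matched 5 of the 9 members, Lama2, Lama5, Lamb1, Lamb2 and Lamb3. The 250 bases before the RefSeq start are printed 5′ to 3′ on the strand of the gene, for Lamb2 at chr9:108479612-108479861 (plus), Lamb1 at chr12:31265043-31265292 (plus) and Lama5 at chr2:180225860-180226109 (minus). Capitals mark the GC box letters GGGCGG or their reverse complement CCGCCC.
Lamb2: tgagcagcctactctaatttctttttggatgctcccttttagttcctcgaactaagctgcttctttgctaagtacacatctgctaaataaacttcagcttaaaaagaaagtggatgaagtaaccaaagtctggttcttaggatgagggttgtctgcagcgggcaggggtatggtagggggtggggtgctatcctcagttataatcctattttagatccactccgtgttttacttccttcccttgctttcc
Lamb1: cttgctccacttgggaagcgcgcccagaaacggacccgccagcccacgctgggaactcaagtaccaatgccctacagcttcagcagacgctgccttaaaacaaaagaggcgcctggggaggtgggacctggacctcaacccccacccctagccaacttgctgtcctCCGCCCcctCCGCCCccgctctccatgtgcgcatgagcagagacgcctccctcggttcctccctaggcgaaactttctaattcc
Lama5: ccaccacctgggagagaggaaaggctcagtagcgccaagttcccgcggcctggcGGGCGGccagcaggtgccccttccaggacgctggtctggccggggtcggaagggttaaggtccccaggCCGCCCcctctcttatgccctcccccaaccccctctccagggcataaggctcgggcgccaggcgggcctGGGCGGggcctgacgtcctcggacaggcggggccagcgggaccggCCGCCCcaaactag
The Lama5 window held 4 such matches with 72.4% G and C, the Lamb1 window 2 with 62.0%, and the Lamb2 window 0 with 43.6%. Of all 32851 promoter windows of this length, 32.7% held at least 1 match on either strand, and the median G and C content was 52.4%. The letters TATAAA were in none of the 3 windows (12.4% of all windows held them on either strand). A match in these letters is a description and not a binding site. Of the 3 chains shown, the one with no match had the highest level. The window of Lama2 and the 2 windows of Lamb3, which are not shown, also held 0 matches. Both chains were low in wild type, at 1.004 and 1.58 CPM per kilobase. Chains with 0 matches thus had both low and high levels. The RefSeq starts are not always the annotated gene starts used elsewhere here. The Lamb3 windows begin at 193301744 and 193301993, inside a gene annotated from 193207699, and the Lama2 window lies inside its gene. The Lamb1 and Lamb2 windows run past their annotated gene starts.

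Among gamma chains, Lamc1, the partner in nearly all laminins outside epithelial anchoring sites, had 35.2, 37.6 and 11.4 CPM in Lama4-/-, against 42.03, 70.9 and 63.9 CPM in wild type. Every mutant library lay below every wild type library. Among all tested genes 12% were lower in Lama4-/- with groups that did not overlap, so this alone is no mark of Lamc1. The log2 fold change was -1.07 (SE 0.46, 95% interval -2.15 to 0.01), which did not pass (adjusted p = 0.395 with edgeR). Without Lama4-/- replicate 3, its lowest library, the log2 fold change was -0.69, and with the length trend removed it was -0.25.

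Lamc3, a gamma chain that is not a member, had 6.36, 6.69 and 0 CPM in Lama4-/- and 7.63, 6.85 and 0 CPM in wild type, so its empty libraries were replicate 3 of each genotype. Per kilobase, Lamc1 was at 3.68 ± 1.90 in Lama4-/- and 7.73 ± 1.98 in wild type (SD, n = 3 each). Lamc1 lies on chromosome 1 from 153218922 to 153332786 on the minus strand.

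**Figure D2:**
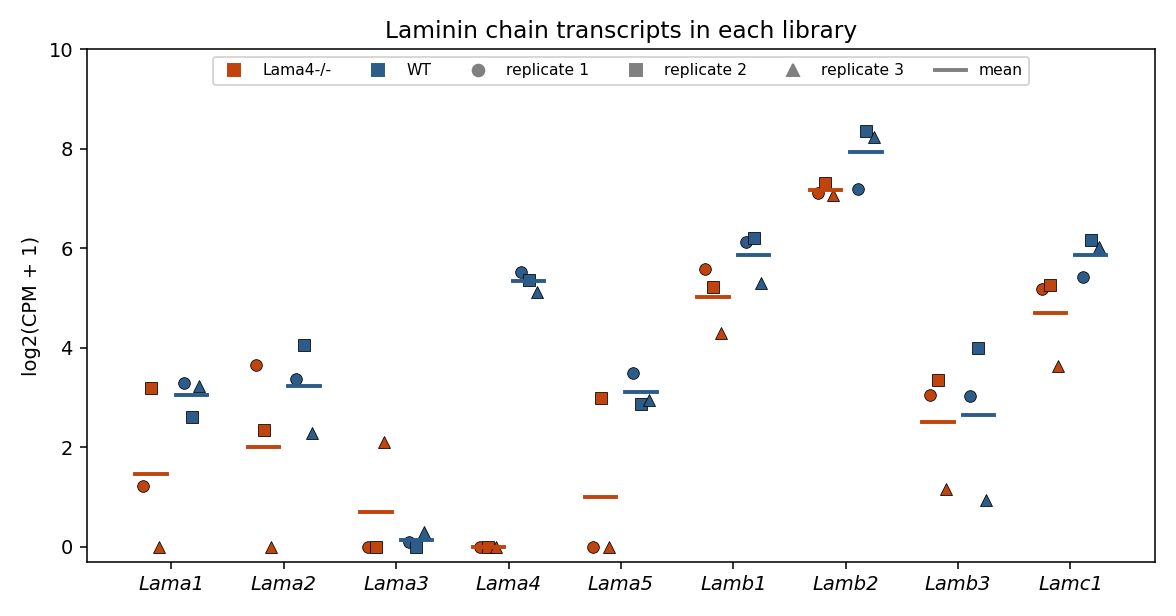
Level of each of the 9 laminin chains in every library as log2(CPM + 1), with Lama4-/- in orange left of wild type (WT) in blue; each symbol is 1 library, its shape gives the replicate number, and a line marks the mean of 3. Lama4 is at 0 in each Lama4-/- library, Lama1, Lama2 and Lama5 are at 0 in Lama4-/- replicate 3, and Lamb2 is the highest chain in both genotypes.

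Over the list, Lama4 was the only member called, 1 of 8 tested (edgeR quasi-likelihood test, adjusted p under 0.05), and 0 were called higher. Without a filter on low counts edgeR again called Lama4 and no other member, against 0.0432% of genes called lower and 0.00392% called higher. DESeq2 likewise called Lama4 alone of the members and gave Lama5 no p-value, against a background of 3.39% of genes called lower and 0.996% called higher. In the authors' deposited table, too, Lama4 was the only member with an adjusted p under 0.05, at 9.81e-48. That table has 484 genes lower and 191 higher at that level. Of its 25491 genes, 15311 have no adjusted p and could not be called. Lama1, Lama3 and Lama5 have no adjusted p there and could not be called. That table lists adjusted p-values of 0.109 for Lamb2, 0.175 for Lamc1 and 0.263 for Lamb1. At an unadjusted p under 0.05, edgeR had 2 members lower and 0 higher, where 8.34% of all tested genes were lower and 4.45% higher. The split of all tested genes at that level was 1207 lower and 644 higher with TMM, 967 lower and 988 higher with upper-quartile scaling, and 456 lower and 714 higher with the length trend removed. limma voom had 3 lower (Lama4, Lama5 and Lamc1) and 0 higher, against 10.8% of all genes lower and 5.43% higher.

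The log2 fold change was negative for all 7 tested members other than Lama4, and its median was -0.87, where 52% of all tested genes were negative and the median was -0.04. Genes of like length moved the same way: the medians of the length classes that hold the members were -0.38, -0.58 and -0.92 over all tested genes. With the length trend removed, 6 of the 7 were negative, with a median of -0.25, where 48.6% of all genes were negative and the median was 0.02. The log2 fold changes were then -0.26 for Lamb2, -0.22 for Lamb1, -0.25 for Lamc1, -0.28 for Lama1, -0.01 for Lama2 and -0.73 for Lama5. The intervals of Lamb2, Lamb1 and Lamc1 in that fit ran from -0.95 to 0.44, from -1.14 to 0.70 and from -1.30 to 0.79. They therefore allow moderate changes in both directions, while those of Lama1, Lama2 and Lama5 allow changes of many-fold. Without Lama4-/- replicate 3 the median of the 7 was -0.66 in the plain fit, with Lama1 at -0.66, Lama2 at -0.29 and Lamb1 at -0.53. Other libraries moved them the other way: Lama1 was at -3.46 without Lama4-/- replicate 2, and Lama2 at -2.23 without Lama4-/- replicate 1.

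**Figure D3:**
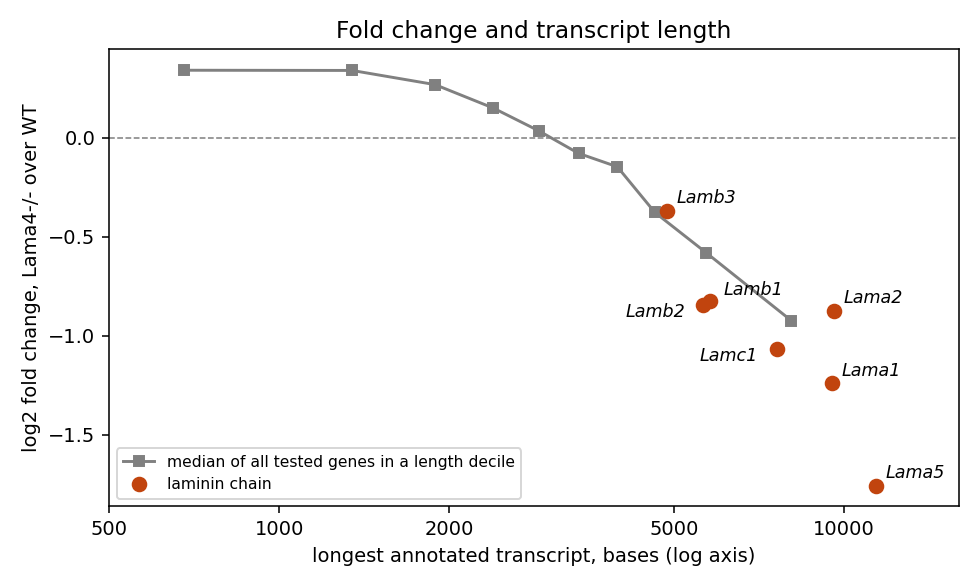
Log2 fold change (Lama4-/- over wild type) of the 7 tested laminin chains other than Lama4 against the length of their longest transcript on a log axis (orange), with the median of all tested genes in each of 10 length classes (grey squares). The class medians fall to -0.92 in the longest class, and the laminin chains lie at that end.

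**Figure D4:**
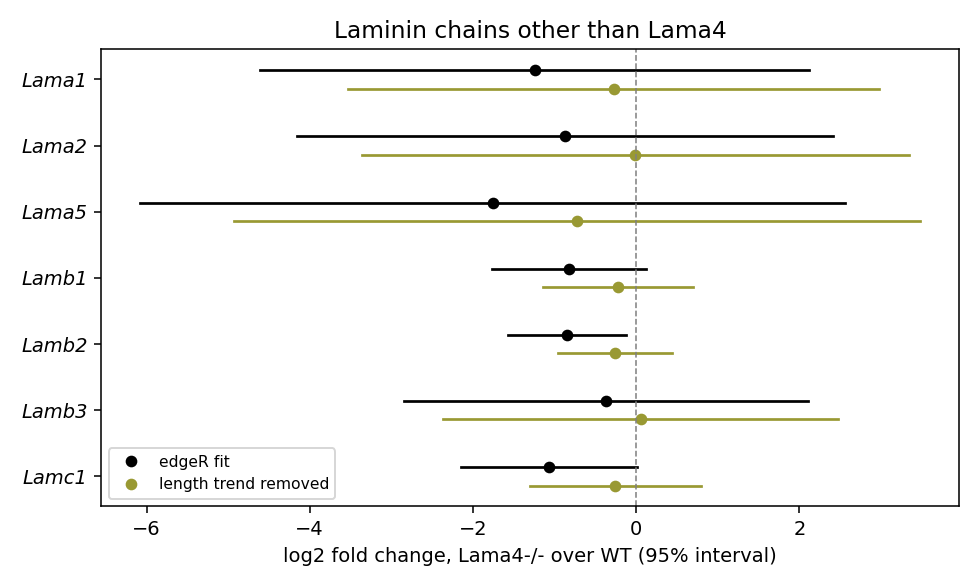
Log2 fold change (Lama4-/- over wild type) of the 7 tested chains other than Lama4 with 95% intervals, in the plain edgeR fit (black) and with the length trend removed (olive). Only the Lamb2 interval of the plain fit leaves out 0, and none does with the trend removed.

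The pattern of a chain over the libraries was also compared with that of 10111 other genes with a mean of at least 5 CPM, as the root mean square difference of centred log2(CPM + 1) over the 6 libraries. Nearest to Lamc1 were Usp8, a deubiquitinase of endosomal sorting, at 0.0866, the zinc finger gene Zhx3 at 0.106, and Dock8 at 0.145. Nearest to Lamb1 were the chondroitin sulfate sulfotransferase gene Chst15 at 0.145, the long noncoding RNA Tug1 at 0.145 and the protocadherin gene Pcdh9 at 0.146. The laminin partners were less alike than these: Lamb1 and Lamc1 differed by 0.489, which ranked Lamb1 565th of 10111 for Lamc1. Lamb2 differed from Lamc1 by 0.550. With 6 libraries and 10111 genes, close matches are common, and these distances describe the libraries only.

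Genes of the proteins that laminins bind were read from lists drawn up with earlier results of these data known. Of 21 tested basement membrane partners (collagen IV chains, nidogens, perlecan and others), edgeR called 0 after adjustment. 6 were lower and 0 higher at an unadjusted p under 0.05, and 18 were negative, with a median of -0.98 and of -0.40 with the length trend removed. Over all tested genes 8.34% were lower and 4.45% higher at that level, 52% were negative and the median was -0.04. Nid1 encodes nidogen, the linker that binds the laminin gamma chain to collagen IV. It had 20.1, 41.1 and 19.4 CPM in Lama4-/-, against 109.8, 124.7 and 107 CPM in wild type, every mutant library below every wild type library. Such a separation on the lower side was found for 12% of all tested genes. The log2 fold change of Nid1 was -2.08 (SE 0.33, adjusted p = 0.237). It was -1.44 after removal of the length trend, and DESeq2 called it (adjusted p = 4.06e-06). Perlecan (Hspg2) had a log2 fold change of -1.78 and Col4a1 of -1.35, and -0.54 and -0.62 with the trend removed. DESeq2 called these and also Col4a2 and Hmcn1 lower, 5 genes of the list in all, against 3.39% of all genes.

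Of 16 tested laminin receptors, 0 were called by edgeR, 4 were lower and 0 higher at an unadjusted p under 0.05, and the median was -0.68, or -0.17 with the length trend removed, beside the same 8.34% lower, 4.45% higher and median of -0.04 over all tested genes. DESeq2 called 2 of them lower, Dag1 and Itgav, against 3.39% of all genes called lower and 0.996% called higher in that test. Dystroglycan (Dag1), a receptor for the globular end of alpha chains, had 97.8, 102 and 80.5 CPM in Lama4-/-, against 186, 232 and 160.2 CPM in wild type, with groups that did not overlap (log2 fold change -1.04, SE 0.21, adjusted p = 0.237, and 0.00161 with DESeq2). With the trend removed it was -0.45. Integrin alpha 6 (Itga6), a chain of the main laminin-binding integrins, had 1.50, 8.57 and 0.581 CPM in Lama4-/-, against 31.6, 17.6 and 15.4 CPM in wild type, again without overlap. Its log2 fold change of -2.60 (SE 0.95, adjusted p = 0.329) was -2.39 with the trend removed, and it was not called by DESeq2 either (adjusted p = 0.0593). The lack of overlap for Dag1 and Itga6 was shared by 12% of all tested genes on the lower side. Itgav, the gene of the sort marker CD51, was at 59.2 ± 14.3 CPM in Lama4-/- and 114 ± 22.5 CPM in wild type (SD, n = 3 each), with a log2 fold change of -0.94 (adjusted p = 0.245 with edgeR and 0.0414 with DESeq2) that was -0.12 with the trend removed.

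Of 8 tested genes that glycosylate dystroglycan for laminin binding, 0 were called, with 0 lower and 1 higher at an unadjusted p under 0.05. Over all tested genes 8.34% were lower and 4.45% higher at that level, so 1 higher gene of 8 is no mark of this list. The higher gene was Pomgnt1, at 104 ± 24.3 CPM in Lama4-/- and 61.8 ± 12.8 CPM in wild type (adjusted p = 0.307). Of 4 tested netrins, which share domains with laminin short arms, 0 had an unadjusted p under 0.05, beside the same shares over all tested genes.

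Around the deleted gene, none of the 7 tested genes among the 5 nearest counted protein-coding genes on each side of Lama4 was called. The nearest tested neighbour, Fam229b, 8616 bases past Lama4, was at 7.68, 8.42 and 10.5 CPM in Lama4-/- and 6.81, 5.14 and 3.39 CPM in wild type (log2 fold change 0.79, adjusted p = 0.598). Tube1 was at 3.90, 2.41 and 3.78 CPM in Lama4-/- and 5.61, 13.4 and 5.63 CPM in wild type, and overlaps Ccn6 in part, so without strand reads of the shared stretch cannot be told apart. Fyn, a kinase of the Src family, was at 126, 94.2 and 93.5 CPM in Lama4-/- and 69.5, 84.1 and 85.1 CPM in wild type (log2 fold change 0.40, adjusted p = 0.489). The groups of these 3 neighbours did not overlap, as held for 10.3% of all tested genes on the higher side and 12% on the lower. On the other side, the nearest counted gene, Rfpl4b, 143736 bases away, had too few counts to be tested. The tested genes there lie far from Lama4, Marcks at 1826595 bases and Hdac2 at 1963626 bases. Marcks, with a log2 fold change of -1.09, and Hdac2, with 0.01, had groups that overlapped.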

How the data were processed

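Poly(A) RNA of sorted cells was amplified with a SMART-Seq v4 kit, made into Nextera XT libraries and read as 75 bp single ends, per the labels' protocols. The kit does not mark strand. The submitters' processing notes name STAR 2.6.1d, featureCounts, DESeq2 and the builds GRCm38 and mm10; their parameters were not given in the sources used here. In the 1 deposited table, 2 block headings are swapped. The columns headed normalized are whole numbers in 100% of cells and were taken as the authors' raw counts. The columns headed raw are a deposited signal, the same counts times a factor per library between 0.708 and 1.98, and were not tested. Per the file headers, the other columns are the authors' DESeq2 mean signal, log2 fold change with its standard error (log2), Wald score, and p-value with adjusted p-value, KO over WT.

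In R 4.3.3, edgeR 4.0.16 scaled counts with TMM, kept genes with filterByExpr and compared genotypes by a robust quasi-likelihood F test, with Benjamini-Hochberg adjustment over 14465 genes at 0.05. Gene positions and lengths are from GENCODE for GRCm38 (99.8% of identifiers matched). The exons of Lama2, Lama3 and Lamc3 overlap antisense genes that the table does not list. Libraries of 1 genotype all differed by more than counting noise (lowest chi-square per gene 47.2). Limits on counts of 0 cover counting error only. On simulated counts of this comparison (13592 genes), edgeR called 55 of the 100 genes with a 4-fold change and 87 of the 99 with a 16-fold change. It also called 7 of the 13393 unchanged genes. The changed genes were drawn from those with higher counts, and the simulated libraries had no length trend. These rates therefore do not show how often a like change would be called in the real libraries.

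Named genes were the 9 members, up to 3 genes a list of receptors or partners at an unadjusted p under 0.05, Lamc3, the neighbours of Lama4 and the 3 genes most like Lamb1 or Lamc1; Col4a2 and Hmcn1 were named after their values were seen. Results for 1 further named gene are left out. Members, lists and alternatives (including removal of the length trend, a lowess of span 0.3 as an offset) were chosen with earlier results of these data known. DESeq2 1.42.0 and limma 3.58.1 were alternatives.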

Additional observations from a re-analysis of the deposited data

How the results depend on the processing

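The single call, Lama4, depended on the settings, and the cause was not tested. edgeR called 1 gene with TMM or DESeq2 size factors, with a filter of 5 CPM in 3 libraries or at an adjusted p of 0.10, 12 genes (1 laminin chain) without a filter, and 0 genes and 0 chains with upper-quartile scaling (1955 genes at an unadjusted p under 0.05), without robust moderation (1874), with the replicate block (1930) or with the length trend removed (1170). limma voom called 0, with 2352 genes at that unadjusted level, and DESeq2 called 722. With each library left out, 0 to 1 genes and 0 to 1 laminin chains were called; Lama4 had an unadjusted p under 0.05 in every setting. The median log2 fold change of the other chains was negative in all settings, from -1.20 with the replicate block to -0.25 with the length trend removed, and from -1.12 to -0.66 with each library left out. Lamb3 turned positive with the length trend removed (0.053) and with limma voom (0.39), and ranged from -0.89 to 0.54 with each library left out; the cause was not tested. The replicate numbers share only a number: the deviations of same-numbered libraries correlated at 0.0400, 0.132 and 0.0539, and every Lama4-/- library correlated best with its own number, as a hint from the data, not the design. Lama1, Lama2, Lama5 and Lamb3 had between 354 and 515 counts over the 6 libraries and Lama3 had 50; total depth did not order them, as Lama4-/- replicate 3, with 14068457 counts, had 0 of Lama1, Lama2 and Lama5, and wild type replicate 2, with 6263830, had 30, 92 and 37.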
